A study of Solanum lycopersicum with 12 samples.

Results

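Tomato stems that had carried a weight were compared with control stems 10 days after the weight came off, over all 1146 genes of the deposited table for that time. The weighted group came from Solanum lycopersicum plants of the genotype Ailsa Craig, with a 3 g wooden clamp hung at the top of a stem 4.5 to 5 cm tall for 48 h. The control group was of the same genotype and tissue, taken at the same time and, per the labels, is a control with no further detail. Both were grown in a greenhouse under long days with 1 plant per pot, and each gave 3 libraries of total stem RNA (6 of the 12 libraries of the series), called biological replicates. Whether plants were pooled within a replicate is not given in the sources used here. The same groups at 6 h after the start of loading (3 libraries each) served to ask whether the effect was already there. The titles' name for the weighted group, DSM, is not spelled out, and the labels place the 6 h collection after treatment, whereas the design text counts it from the start.

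Stems under mechanical load change their growth, typically becoming shorter, stiffer or thicker. That growth draws on the cell wall, whose cellulose and callose are made at the plasma membrane and whose matrix polymers are made in the Golgi and carried out in coated vesicles. Receptor-like kinases at the cell surface sense the wall and hormones. The green cortex of a young stem also photosynthesises, and the sugar it makes or receives moves through membrane transporters.

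Values were FPKM, in which the fragments of a gene are divided by its transcript length and by the size of the library. The read depth is unknown, and no counting error can be given. Differences below are weighted minus control on the scale of log2(FPKM + 1), which understates changes of low genes, tested with limma. "Called" means a Benjamini-Hochberg adjusted p under 0.05 over all 1114 genes that reached 1 FPKM in at least 3 of the 6 libraries. Summed over the table, weighted stems held 91329 to 92158 FPKM and control stems 109028 to 118361 FPKM. Across genes, log2 values of replicates correlated at 0.988 to 0.997 among weighted stems and at 0.979 to 0.990 among control stems. Control replicate 2 stood apart most in the heat shock genes described below.

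The table holds genes already selected for this contrast, and nearly all of them passed. In the authors' deposited table the Q value was under 0.05 for 908 of 909 genes where it was legible. Of 1114 genes tested, 1111 were called (99.7%): 577 were higher in weighted stems (51.8%) and 534 were lower (47.9%). A call alone therefore says little about a gene, and gene groups are described by the direction of their members beside these shares. The 3 genes that were not called were a kinase domain gene (Solyc07g055670.1), a WRKY factor (Solyc08g067340.4) and an ankyrin gene (Solyc08g062360.3), and which single library was left out moved them widely. They were at -2.19, -2.09 and -1.93 and called lower without control replicate 1, and at -0.64, -0.88 and -0.79 and not called without control replicate 2. The groups did not overlap in 1118 of the 1146 genes. In 589 of these every weighted library was higher (51.4%) and in 529 every weighted library was lower (46.2%).

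Most differences were modest. The median over all genes tested was 0.35, the median of genes called higher was 0.53 and that of genes called lower was -0.52. In 500 genes the difference lay between -0.5 and 0.5, in 45 it was 1 or more and in 59 it was -1 or less, with extremes of 1.86 and -2.51. Whether mild falls were called depended on scaling, because control libraries had larger sums over the table. Direction mostly held, with 20 genes changing sign with library totals equalised and 0 with median-ratio scaling. With library totals equalised the median of all genes was 0.62, and 577 genes were higher and 169 lower. These totals are sums over the selected genes of the table, not over whole libraries, and FPKM already allows for library size. Small heat shock genes alone made up 11.7% to 25.4% of the control sums and 5.48% to 10.1% of the weighted sums. Equalising therefore raises the other genes in weighted stems, and calls lost under it are a limit of uncertain weight. With median-ratio scaling the median was 0.15, and 481 were higher and 533 lower. Over genes reaching 5 FPKM in at least 3 libraries, 476 were higher and 482 lower, with a median of -0.24. Counts with library totals equalised stand below beside the gene groups whose calls they change, and counts with median-ratio scaling where they move by more than 1 gene. In the vesicle tether, translation factor, cytoskeleton, ABC transporter and very large protein lists no gene was called lower by limma with library totals equalised, and 0 were lower at an unadjusted p under 0.05.

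**Figure D1:**
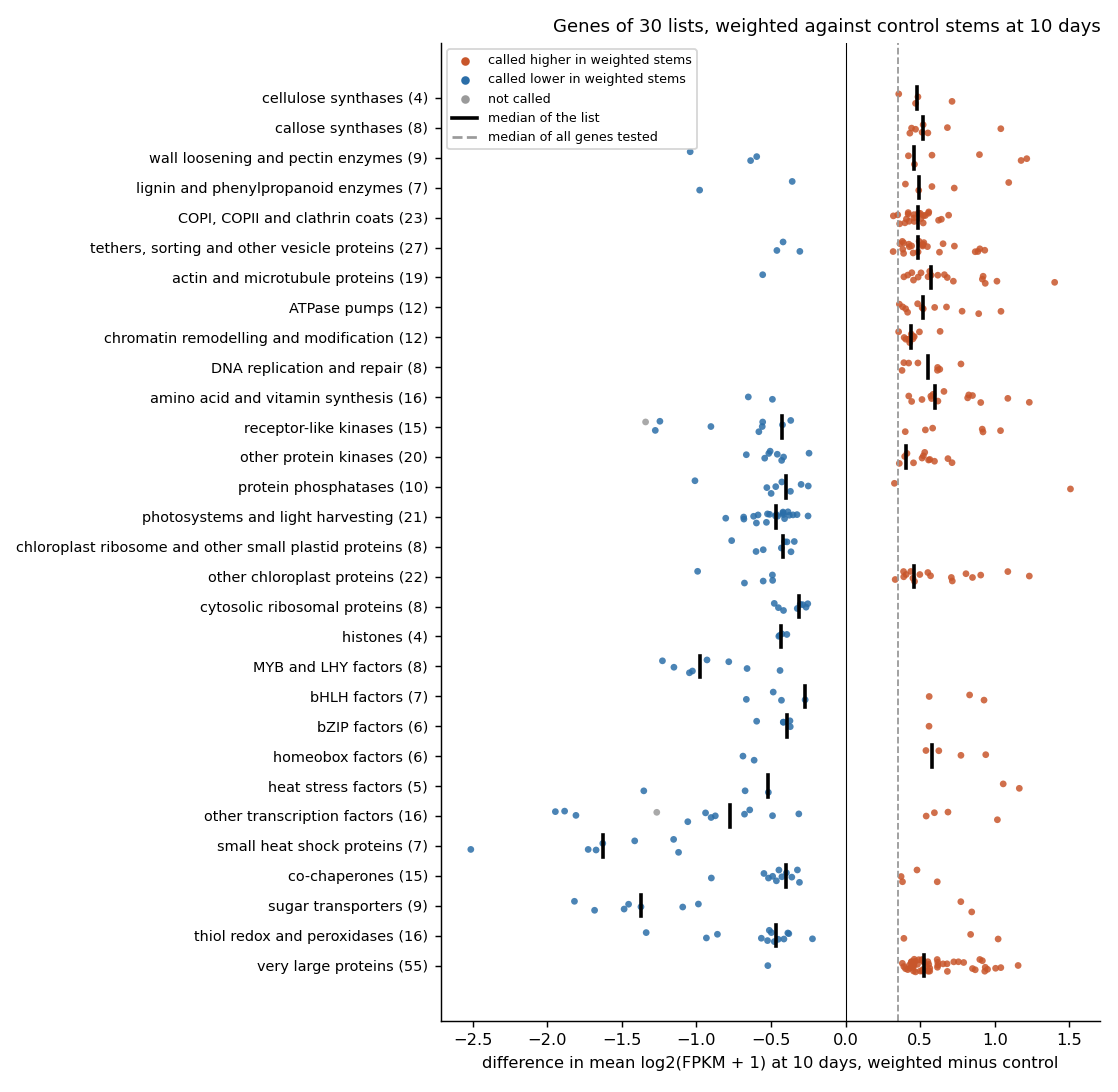
Difference between weighted and control stems at 10 days (log2(FPKM + 1), horizontal axis) for every tested gene of 30 gene lists, 1 list a row, with genes called higher in weighted stems in orange, genes called lower in blue, uncalled genes in grey, the list median as a black bar and the median of all genes as a dashed line. All 23 coat genes and 54 of 55 very large protein genes lie right of 0, while all 21 photosystem genes and all 7 small heat shock genes lie left of it.

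Among the 10 largest rises were genes of auxin response, protein breakdown, membrane lipids, microtubules and carbon supply. An Aux/IAA-type auxin-responsive protein gene (Solyc03g120390.3), of a family that restrains auxin response, had 45.6, 43.7 and 26.6 FPKM in weighted stems, against 18.9, 10.4 and 9.51 FPKM in control stems. Every weighted library was above every control library (difference 1.53, SE 0.28, limma adjusted p = 0.00369). Cysteine protease Cp5 (Solyc02g076750.3) had 27.3, 19.5 and 25.7 FPKM in weighted stems, against 8.63, 5.28 and 7.94 FPKM in control stems. Its groups were likewise apart (1.61, SE 0.19, limma adjusted p = 0.00205). A beta-tubulin gene (Solyc03g118760.4), for a subunit of microtubules, had 34.8, 32.5 and 23.6 FPKM in weighted stems, against 11.6, 11.9 and 8.85 FPKM in control stems. The lowest weighted value was still above the highest control value (1.40, SE 0.17, limma adjusted p = 0.00205).

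Phosphoenolpyruvate carboxylase (Solyc07g062530.3), which fixes bicarbonate into the organic acid pool, had 170.5, 162 and 96.3 FPKM in weighted stems and 50.6, 67.2 and 52.5 FPKM in control stems. It rose by 1.28 (SE 0.22, limma adjusted p = 0.00318), with weighted replicate 3 lowest of its group. A gene for a protein of unknown function (DUF1442, Solyc06g034410.3) showed the largest rise, with 16.8, 16.8 and 9.81 FPKM in weighted stems and 3.99, 4.48 and 1.62 FPKM in control stems (1.86, SE 0.31, limma adjusted p = 0.00296). The same replicate was again the lowest of the weighted libraries, as it also was for a PPM-type phosphatase (Solyc06g051940.4, 1.51) and a LURP-one-related gene (Solyc08g081680.2, 1.49). Phospholipase A2 (Solyc07g014730.3), which frees fatty acids from membrane lipids, had 44.2, 37.5 and 43.7 FPKM in weighted stems and 28.1, 7.99 and 13.4 FPKM in control stems. Tonoplast intrinsic protein 23 (Solyc06g060760.3), a vacuolar aquaporin, had 16.9, 20.2 and 19.5 FPKM in weighted stems and 13.5, 3.83 and 4.91 FPKM in control stems. In both genes control replicate 1 came closest to the weighted libraries.

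The 10 largest falls joined regulators, sugar transport and heat shock. CONSTANS 1 (Solyc02g089540.3), named for the photoperiod regulator of flowering in Arabidopsis, had 5.23, 6.18 and 6.97 FPKM in weighted stems, against 32.3, 18.7 and 30.1 FPKM in control stems. No weighted library came near a control library (-1.95, SE 0.20, limma adjusted p = 0.00173). The Dof-type factor gene Solyc05g007880.4, of plant-specific zinc finger regulators, had 6.61, 6.06 and 5.35 FPKM in weighted stems, against 22.1, 28.5 and 24.2 FPKM in control stems. This was the fall with the smallest error among the 10 (-1.88, SE 0.13, limma adjusted p = 0.000551). GAST1 (Solyc02g089350.3), a small cysteine-rich protein gene first known as gibberellin-induced in tomato, had 2.43, 2.28 and 3.02 FPKM in weighted stems, against 22.6, 12.4 and 5.32 FPKM in control stems. Its groups did not overlap, but the control values spread widely (-1.82, SE 0.41, limma adjusted p = 0.00495).

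A putative phosphatase (Solyc06g062540.3) had 9.66, 8.19 and 3.00 FPKM in weighted stems, against 26.2, 20.0 and 40.0 FPKM in control stems. A gene of the UPF0301 family of unknown function (Solyc02g067050.3) had 7.21, 7.14 and 6.18 FPKM in weighted stems, against 19.9, 31.7 and 36.3 FPKM in control stems. Both were lower in every weighted library, by -1.97 and -1.91. A zinc-finger protein gene (Solyc12g088390.1) had 2.20, 0.96 and 0.45 FPKM in weighted stems, against 3.75, 15.3 and 4.05 FPKM in control stems. The groups did not overlap (-1.81, SE 0.49), and without control replicate 2, the highest library, the difference was -1.23.

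**Figure D2:**
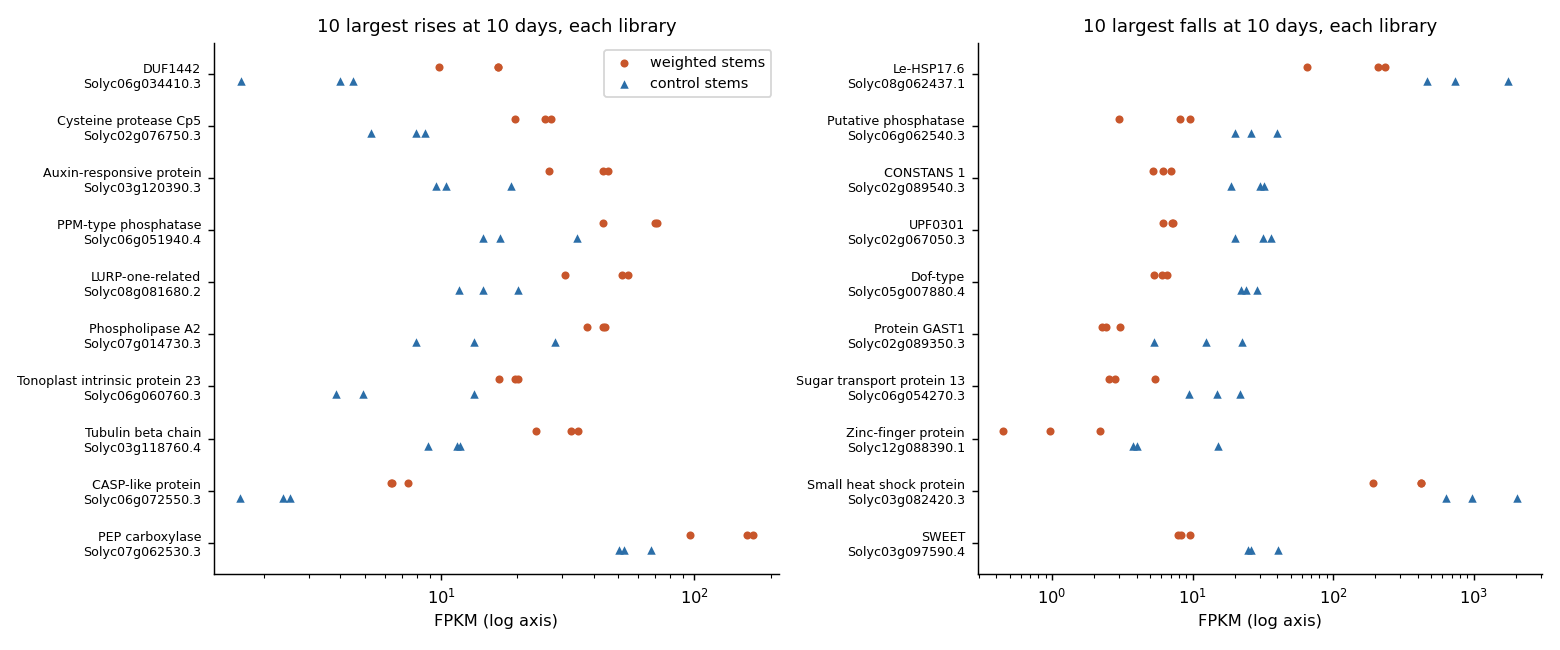
FPKM (log axis) in each library for the 10 largest rises (left panel) and the 10 largest falls (right panel) among named genes at 10 days, weighted libraries as orange circles and control libraries as blue triangles. The colours separate in all 20 genes, widely for the Dof-type gene (5.35 to 6.61 against 22.1 to 28.5 FPKM) and narrowly for phospholipase A2 (37.5 to 44.2 against 7.99 to 28.1 FPKM).

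Wall polymer synthases were higher in weighted stems without exception. All 4 cellulose synthase genes (median 0.48) and all 8 callose synthase genes (median 0.52) were called higher, beside 51.8% of all genes. The median was 0.35 over all genes and 0.53 over genes called higher, so neither list rose more than genes called higher typically did. Under median-ratio scaling 3 of the 4 cellulose synthase genes were called. A cellulose synthase gene (Solyc04g071650.4) had 173, 154 and 126 FPKM in weighted stems, against 93.2, 101 and 80.1 FPKM in control stems. Its groups did not overlap (0.71, SE 0.13, limma adjusted p = 0.00377). The most abundant of the 3 named, Solyc09g072820.4, had 384, 371 and 362 FPKM in weighted stems, against 259, 283 and 255 FPKM in control stems (0.49, SE 0.08, limma adjusted p = 0.00289). Callose synthase 9 (Solyc01g006360.4), from a family that makes the glucan of plasmodesmata and cell plates, had 9.88, 7.25 and 6.52 FPKM in weighted stems, against 2.99, 3.24 and 3.58 FPKM in control stems. It rose by 1.04 (SE 0.16, limma adjusted p = 0.00253).

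Wall loosening and lignin genes went both ways. Of 9 wall-loosening and pectin genes tested, 6 were higher and 3 lower (6 and 1 with library totals equalised, 4 and 3 with median-ratio scaling). An endoglucanase (Solyc09g075360.4), which cuts wall glucans, had 17.8, 18.6 and 27.4 FPKM in weighted stems and 15.1, 5.72 and 7.35 FPKM in control stems. It rose by 1.18 (SE 0.31, limma adjusted p = 0.00791), though control replicate 1 lay close to the weighted values. A pectinesterase/pectinesterase inhibitor gene (Solyc03g123630.4) had 194, 186 and 178 FPKM in weighted stems and 129, 73.6 and 103 FPKM in control stems (0.90, SE 0.18). Another pectinesterase (Solyc06g051960.3), an enzyme that demethylates pectin, fell to 19.0, 20.6 and 20.4 FPKM in weighted stems, against 40.3, 27.8 and 28.3 FPKM in control stems (-0.64, SE 0.15, limma adjusted p = 0.00512). That call was lost with library totals equalised (-0.35). The single expansin of the table (Solyc03g031840.3), a wall-loosening protein looked up after its values were seen, had 95.2, 99.6 and 122 FPKM in weighted stems and 162, 153 and 163 FPKM in control stems (-0.60).

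Of 7 lignin and phenylpropanoid genes, 5 were higher and 2 lower (1 lower with library totals equalised, without weighted replicate 2 or without control replicate 1). Laccase (Solyc09g014240.4), which couples lignin monomers in the wall, had 237, 236 and 187 FPKM in weighted stems, against 141, 126 and 129 FPKM in control stems. The weighted libraries lay clear of the controls (0.73, SE 0.11, limma adjusted p = 0.00253). Caffeoyl-CoA O-methyltransferase (Solyc04g063210.3), an enzyme of lignin monomer synthesis, had 24.8, 25.1 and 41.5 FPKM in weighted stems and 18.6, 8.13 and 15.4 FPKM in control stems (1.09, SE 0.30, limma adjusted p = 0.00892). Cinnamoyl-CoA reductase (Solyc02g089780.3), a later step of that path, fell to 2.48, 2.90 and 3.39 FPKM in weighted stems, against 5.73, 6.55 and 7.97 FPKM in control stems (-0.98, SE 0.15). Of the 2 other wall protein genes, a FAS1 domain gene (Solyc07g045440.1) rose by 0.54 and an arabinogalactan protein gene (Solyc08g008230.3) fell by 0.44, a call lost with library totals equalised (-0.16).

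Genes of the secretory pathway were nearly all higher. All 23 genes for COPI, COPII and clathrin coats, which bud vesicles from the endoplasmic reticulum, Golgi and plasma membrane, were higher in weighted stems, beside 51.8% of all genes. Their median was 0.49, beside 0.53 over all genes called higher, with a range of 0.32 to 0.69. Differences near 0 are scarce in this selected table, so the lower end of that range says little about coats. With median-ratio scaling 19 of them were called, all higher. A Sec24-like gene (Solyc06g084210.3), for the COPII subunit that picks cargo, had 45.6, 42.7 and 51.3 FPKM in weighted stems, against 29.8, 23.7 and 32.2 FPKM in control stems. All weighted values were above all control values (0.69, SE 0.13, limma adjusted p = 0.00377). The gamma subunit of the AP-1 adaptor (Solyc04g025870.4), which gathers clathrin at the Golgi, had 19.9, 18.5 and 19.0 FPKM in weighted stems, against 13.0, 11.0 and 12.2 FPKM in control stems (0.62, SE 0.10, limma adjusted p = 0.00272).

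Of 27 tested genes for tethers, sorting and other vesicle proteins, 24 were higher and 3 lower (24 and 0 by limma with library totals equalised, 20 and 3 with median-ratio scaling). Dynamin-related protein 4c (Solyc04g072030.1), of a family of membrane-scission GTPases, had 178, 177 and 195 FPKM in weighted stems, against 94.9, 92.2 and 109 FPKM in control stems. Its weighted values were well clear of the controls (0.89, SE 0.09, limma adjusted p = 0.00173). A SEC7 domain gene (Solyc01g112340.3), of the exchange factors that switch on coat-recruiting GTPases, had 10.1, 7.44 and 7.23 FPKM in weighted stems, against 3.76, 4.03 and 3.95 FPKM in control stems (0.90, SE 0.14). The 3 lower genes included Bet1-like SNARE 1-1 (Solyc06g008520.4, -0.42) and a vesicle-associated membrane protein (Solyc06g065950.4, -0.31), both of the short SNARE proteins that drive membrane fusion.

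Genes named for very large proteins were higher in weighted stems almost without exception, across functions. This list was matched on names or domains rather than measured lengths, and was chosen with earlier results of these data known. It takes in callose synthases, clathrin heavy chains, myosins, giant ubiquitin ligases, BEACH proteins, nuclear pore and Mediator subunits. Of its 55 tested genes 54 were higher and 1 was lower, with a median of 0.52 (54 and 0 by limma with library totals equalised, 52 and 1 with median-ratio scaling). Over all genes 51.8% were higher, and the genes called higher had a median of 0.53. The exception, an acetyl-CoA carboxytransferase gene (Solyc01g094340.3), had 10.2, 9.60 and 10.3 FPKM in weighted stems and 16.1, 12.8 and 16.0 FPKM in control stems, and its name can also stand for a smaller chloroplast subunit. The mean log2 level of the list was 3.65, 3.43 and 3.47 in weighted stems, against 3.00, 2.82 and 2.97 in control stems. Among genes whose names state a mass, all 10 from 10 to 33 kDa were lower in weighted stems, beside 47.9% of all genes. Those of 69 and 187 kDa (Solyc12g055800.3 and Solyc02g070260.4) were higher. The 10 include class I small heat shock proteins and photosystem II subunits, which the lists below also count, so they are not a separate set.

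The short-protein groups of the table went the other way. Cytosolic ribosomal proteins, histones, small heat shock proteins and photosystem subunits had no member called higher, although with library totals equalised the calls of the ribosomal protein and histone lists were lost, and 3 photosystem genes were called. Transcript lengths are not in the files, and the part that gene size has in any group difference was not tested. At 6 h the short-protein groups differed among themselves. Of 8 cytosolic ribosomal protein genes 5 were higher and 1 lower (median 0.36), and 0 of 4 histone genes were called (median -0.06). Of 21 photosystem genes 17 were lower, as were 2 of 7 small heat shock genes, with 0 higher in either list. The very large proteins leaned at 6 h as they did at 10 days, with smaller differences. Of the 55 genes 44 had a positive difference, beside 593 of all 1114, with a median of 0.14 beside 0.02, and 5 were called higher and 3 lower. Their mean log2 level then was 3.36, 3.39 and 3.21 in weighted stems, against 3.24, 3.14 and 3.24 in control stems. Some of these genes carry neighbouring identifiers and like names or domains, such as the pairs Solyc01g094050.1 and Solyc01g094060.4 (BEACH domain) and Solyc04g050510.3 and Solyc04g050520.3 (armadillo-like domain), so their members are not all independent.

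**Figure D3:**
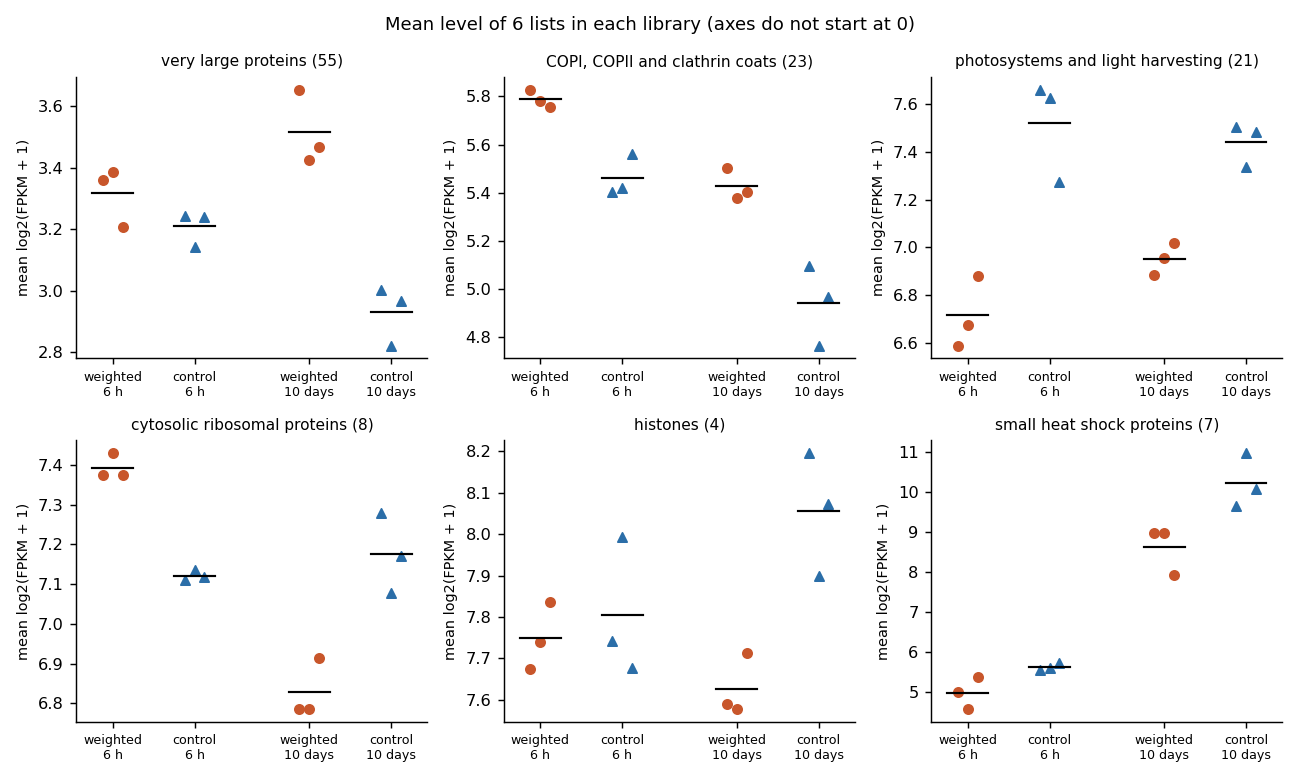
Mean log2(FPKM + 1) of 6 gene lists in each library (vertical axes do not start at 0), with the 6 h libraries left of the 10 day libraries weighted (orange circles) left of control (blue triangles) at each time, and bars for group means. At 10 days very large proteins and coats were higher in all 3 weighted libraries and the other 4 lists were lower, and control replicate 2 had the highest small heat shock level (10.98).

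Kinase genes went both ways, and no test compared their classes. Of 15 receptor-like kinase genes tested, 6 were higher, 8 lower and 1 not called, with a median of -0.42, shares of 40.0% and 53.3% beside 51.8% and 47.9% of all genes. The lower count was 2 with library totals equalised, and over single left-out libraries it ran between 4 without control replicate 3 and 9 without control replicate 1, with 5 without weighted replicate 2. A gene with a wall-associated kinase extracellular domain (Solyc01g100090.1) had 9.75, 11.3 and 9.14 FPKM in weighted stems, against 15.3, 32.1 and 34.4 FPKM in control stems (-1.28, SE 0.28, limma adjusted p = 0.00454). A wall-associated kinase (Solyc05g009010.1), of a receptor family that binds pectin, had 5.07, 3.99 and 3.32 FPKM in weighted stems, against 4.36, 20.8 and 13.9 FPKM in control stems. Its groups overlapped, and its call (-1.25, limma adjusted p = 0.0261) was lost without any 1 of 5 of the libraries and with library totals equalised (-0.99), with a value of -0.82 without control replicate 2. CLAVATA1 (Solyc04g076990.3), a receptor kinase of meristem signalling, had 14.1, 14.5 and 14.9 FPKM in weighted stems, against 19.5, 26.2 and 20.2 FPKM in control stems (-0.56, SE 0.12). That call was lost with library totals equalised (-0.28).

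Of 20 other protein kinases tested, 12 were higher and 8 lower, with a median of 0.40; with library totals equalised 12 were higher, 1 was lower and 1 gene changed sign. A serine/threonine kinase (Solyc04g078870.4) had 51.4, 46.3 and 47.7 FPKM in weighted stems, against 33.0, 26.7 and 28.0 FPKM in control stems. It rose by 0.71 (SE 0.10, limma adjusted p = 0.00253). Another (Solyc05g053210.4) had 73.4, 74.0 and 66.0 FPKM in weighted stems, against 104, 113 and 124 FPKM in control stems, and fell by 0.67 (SE 0.09). Of 10 protein phosphatases, which reverse kinase action, 2 were higher and 8 lower (2 and 1 with library totals equalised, with 1 sign change).

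Chloroplast genes went both ways. All 21 genes for photosystem subunits, light harvesting and electron carriers were lower in weighted stems, beside 47.9% of all genes, with a median of -0.46. Chlorophyll a-b binding protein 13 (Solyc12g011450.2), an antenna protein, had 339, 378 and 508 FPKM in weighted stems, against 740.2, 584 and 803 FPKM in control stems. Weighted replicate 3 came closest to the controls without reaching them (-0.80, SE 0.18, limma adjusted p = 0.00466). Ferredoxin-1 (Solyc10g044520.3), which passes electrons on from photosystem I, had 319, 351 and 361 FPKM in weighted stems, against 575, 489 and 499 FPKM in control stems (-0.60, SE 0.10). Plastocyanin (Solyc04g082010.1), the carrier between the cytochrome complex and photosystem I, had 266, 314 and 348 FPKM in weighted stems, against 464, 399 and 406 FPKM in control stems (-0.46, SE 0.12). The last 2 genes were named after their values were seen. With library totals equalised 3 of the 21 were called lower, the median was -0.17 and 1 gene changed sign, and with median-ratio scaling all 21 were called lower, with a median of -0.68. In bulk stems fewer green cells and less of these RNAs per cell cannot be told apart.

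All 8 genes for chloroplast ribosomal and other small plastid proteins were also lower (median -0.42; 2 with library totals equalised), such as chloroplast ribosomal protein L6 (Solyc04g077130.1), with 71.9, 71.7 and 81.5 FPKM in weighted stems and 122, 123 and 99.1 FPKM in control stems. Other chloroplast proteins, mostly enzymes, went 17 higher and 5 lower of 22 tested (median 0.46; 17 and 2 with library totals equalised, 14 and 5 with median-ratio scaling). Threonine dehydratase 2 (Solyc09g008670.3), of isoleucine synthesis and of leaf defence in tomato, had 20.8, 18.3 and 13.2 FPKM in weighted stems and 9.12, 4.35 and 10.5 FPKM in control stems (1.09, SE 0.29, limma adjusted p = 0.00791). A phospholipase A1 (Solyc08g078090.1) had 16.2, 15.9 and 15.1 FPKM in weighted stems, against 20.4, 52.7 and 31.1 FPKM in control stems, the highest in control replicate 2 (-0.99, and -0.65 without that library).

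Transcription factor genes went both ways, and the lower calls of several families depended on the scaling. All 8 genes of the MYB and LHY list were lower, beside 47.9% of all genes, with a median of -0.98. Of these, 4 were called with library totals equalised and 7 with median-ratio scaling. A telomere repeat-binding protein gene with a SANT/Myb domain (Solyc06g076270.3), which is not in the list, was called higher (0.35). An HTH myb-type gene (Solyc04g005100.3) had 33.9, 35.5 and 22.7 FPKM in weighted stems, against 54.1, 79.9 and 86.0 FPKM in control stems (-1.23, SE 0.22, limma adjusted p = 0.00332). Its groups did not overlap, and weighted replicate 3 was again lowest. Of 16 other factors tested (Dof, zinc finger, NAC, MADS-box, WRKY and others), 4 were higher, 11 lower and 1 not called (4 and 8 with library totals equalised), with a median of -0.78. Among them NAC domain protein 2 (Solyc04g005610.3) had 12.1, 11.4 and 8.77 FPKM in weighted stems, against 25.6, 24.2 and 20.4 FPKM in control stems. A MADS-box gene (Solyc04g076690.4) had 8.44, 8.71 and 6.49 FPKM in weighted stems, against 2.70, 4.06 and 3.42 FPKM in control stems. These last 2, with differences of -1.06 and 1.02, were named after their values were seen.

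Of 6 homeobox genes 4 were higher and 2 lower (4 and 1 with library totals equalised). ATHB-15 (Solyc12g044410.2), a class III leucine zipper factor that patterns vascular tissue in Arabidopsis, had 105, 91.2 and 109 FPKM in weighted stems, against 78.1, 52.9 and 67.5 FPKM in control stems. The groups were apart (0.63, SE 0.15, limma adjusted p = 0.00524). bZIP genes went 1 higher and 5 lower (1 and 0 with library totals equalised, and 0 lower at an unadjusted p under 0.05). bHLH genes went 3 higher and 4 lower (3 and 0 with library totals equalised, 0 lower at an unadjusted p under 0.05, with 1 sign change; 2 lower without weighted replicate 2). The highest bHLH rise was in Solyc10g006640.3, with 4.80, 4.98 and 6.03 FPKM in weighted stems and 2.38, 2.24 and 2.23 FPKM in control stems (0.93, SE 0.12).

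Hormone genes were few in the table. Of 6 auxin genes tested 4 were higher and 2 lower (4 and 1 with library totals equalised). Besides the gene above, a second auxin-responsive protein (Solyc08g021820.3) had 5.96, 4.59 and 5.30 FPKM in weighted stems, against 2.72, 3.34 and 2.02 FPKM in control stems (0.78, SE 0.16, limma adjusted p = 0.00428). A putative indole-3-acetic acid-amido synthetase (Solyc01g095580.3), of the GH3 enzymes that conjugate auxin, fell to 4.72, 4.39 and 4.64 FPKM in weighted stems, against 8.44, 8.77 and 9.47 FPKM in control stems (-0.82, SE 0.10). LAX3 (Solyc11g013310.2), of the auxin influx carriers, fell by 0.64, and an auxin efflux carrier (Solyc06g059730.3) rose by 0.48.

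Both ethylene genes tested were higher. An ethylene receptor (Solyc09g089610.3) had 4.70, 4.91 and 4.76 FPKM in weighted stems, against 1.93, 3.20 and 1.48 FPKM in control stems (0.89, SE 0.19, limma adjusted p = 0.00446). Ethylene-overproduction protein 1 (Solyc09g055310.3), whose Arabidopsis counterpart marks ACC synthase for breakdown, had 19.0, 18.2 and 17.2 FPKM in weighted stems, against 15.4, 12.8 and 14.3 FPKM in control stems. Its small rise (0.34, SE 0.10, limma adjusted p = 0.0117) was not called with median-ratio scaling (0.14). Of 5 gibberellin and abscisic acid genes 2 were higher and 3 lower (2 and 2 with library totals equalised). Gibberellin 2-oxidase 2 (Solyc07g056670.3), which inactivates gibberellins, had 9.12, 9.89 and 9.62 FPKM in weighted stems, against 4.36, 5.98 and 3.85 FPKM in control stems (0.90, SE 0.15, limma adjusted p = 0.00289). Snakin-2 (Solyc01g150176.1), of the same peptide family as GAST1, had 44.9, 52.3 and 37.5 FPKM in weighted stems, against 57.0, 77.9 and 79.1 FPKM in control stems (-0.65, SE 0.16), a call lost with library totals equalised (-0.36). Abscisic acid receptor PYL4 (Solyc03g095780.3) fell by 1.11 at low levels. The LAX3, efflux carrier, receptor and PYL4 genes were named after their values were seen.

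Light and clock genes split evenly, 4 higher and 4 lower. LHY-like (Solyc10g005080.3), a clock factor that peaks at dawn in Arabidopsis, had 41.2, 38.7 and 20.9 FPKM in weighted stems, against 62.3, 76.1 and 65.2 FPKM in control stems (-1.05, SE 0.24, limma adjusted p = 0.00497). GIGANTEA-like (Solyc04g071990.3), whose Arabidopsis counterpart peaks late in the day, had 19.6, 17.8 and 25.9 FPKM in weighted stems, against 12.4, 11.0 and 11.8 FPKM in control stems (0.78, SE 0.14). Cold-regulated protein 27/28 (Solyc04g078880.3), of regulators that link light, cold and the clock, had 5.03, 5.34 and 10.6 FPKM in weighted stems, against 3.19, 2.15 and 3.43 FPKM in control stems (0.97, SE 0.26). Cryptochrome 1b (Solyc12g057040.2), a blue light receptor, fell to 6.07, 5.35 and 8.52 FPKM in weighted stems, against 13.8, 12.8 and 10.9 FPKM in control stems (-0.84, SE 0.17). Weighted replicate 3 had the lowest LHY-like and the highest GIGANTEA-like and cold-regulated values of its group. The hour at which each library was collected is not given in the sources used here, and its part in these differences was not tested. GIGANTEA-like and cryptochrome were named after their values were seen.

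Small heat shock proteins, which hold unfolding proteins, carried the largest shift in abundance. All 7 genes were lower in weighted stems under the deposited and both other scalings, with a median of -1.63. Their summed level was 9201, 8488 and 5046 FPKM in weighted stems, against 12716, 30098 and 16707 FPKM in control stems. They made up 10.1%, 9.23% and 5.48% of the weighted table sums and 11.7%, 25.4% and 15.0% of the control sums. Control replicate 2 was thus the highest and weighted replicate 3 the lowest, and the sums of the remaining genes still differed, at 82128 to 87112 FPKM in weighted stems and 88262 to 96313 FPKM in control stems. At 6 h the same 7 genes summed to 364 to 662 FPKM in weighted stems and 661 to 852 FPKM in control stems. Weighted and control stems alike thus held far more of these RNAs at 10 days, and the reason was not tested.

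The most abundant member, a 17.8 kDa class I protein (Solyc06g076520.1), had 5505, 4841 and 3448 FPKM in weighted stems, against 7174, 14770.0 and 8914 FPKM in control stems (-1.12, SE 0.29, limma adjusted p = 0.00681). The largest fall, in a class II member (Solyc08g062437.1), ran over 209.9, 236 and 65.4 FPKM in weighted stems, against 469, 1768 and 742 FPKM in control stems (-2.51, SE 0.58, limma adjusted p = 0.00524). No weighted library reached a control library in either gene. How the authors treated reads shared by near-identical copies is not given in the sources used here, so single values in this family are uncertain.

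Other protein quality genes followed in part. Of 15 co-chaperones, which assist larger chaperones, 4 were higher and 11 lower (4 and 1 with library totals equalised, 2 and 11 with median-ratio scaling). Of 5 heat stress factors, the activators of heat shock genes, 2 were higher and 3 lower (2 and 2 with library totals equalised). Heat stress transcription factor A-6b (Solyc06g053950.3) had 55.6, 62.4 and 52.0 FPKM in weighted stems, against 31.4, 18.9 and 31.7 FPKM in control stems (1.06, SE 0.19, limma adjusted p = 0.00365). Its neighbour by identifier, Solyc06g053960.3, had 29.0, 27.6 and 24.9 FPKM in weighted stems, against 10.8, 10.9 and 13.0 FPKM in control stems (1.17, SE 0.11, limma adjusted p = 0.00155). Another factor (Solyc07g055710.3) had 3.81, 3.85 and 2.30 FPKM in weighted stems, against 3.67, 19.2 and 12.6 FPKM in control stems. Its groups overlapped, and its call (-1.35, limma adjusted p = 0.0233) was lost without 4 of the libraries, with -0.90 without control replicate 2.

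Of 45 ubiquitin and proteasome genes 23 were higher and 22 lower (23 and 5 with library totals equalised, 20 and 22 with median-ratio scaling). The 4 HECT and UPL3 ligases among them were higher and the 3 E2 conjugating enzymes, such as Solyc06g007510.3 (-0.44), were lower, a split seen only after the values were known. Of 14 proteases and inhibitors tested 9 were higher and 5 lower (9 and 2 with library totals equalised, with 1 sign change). A subtilase-type peptidase (Solyc08g079890.2) had 39.9, 42.9 and 54.9 FPKM in weighted stems, against 31.9, 16.7 and 19.5 FPKM in control stems (1.02, SE 0.23). Genes of translation moved in both directions. All 8 cytosolic ribosomal protein genes were lower (median -0.31), while 6 of 8 translation factor and tRNA ligase genes were higher and 2 lower (median 0.53; 6 and 0 by limma with library totals equalised). Ribosomal protein L15 (Solyc06g060400.3) had 283, 286 and 298 FPKM in weighted stems, against 408, 379 and 399 FPKM in control stems (-0.45, SE 0.08, limma adjusted p = 0.00318). Initiation factor 5B (Solyc03g058390.2), which joins the ribosomal subunits, had 9.30, 6.25 and 6.71 FPKM in weighted stems, against 3.63, 3.07 and 3.56 FPKM in control stems (0.91, SE 0.15). With library totals equalised none of the 8 ribosomal protein genes was called by limma (0 at an unadjusted p under 0.05), and 3 changed sign.

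Among nuclear genes directions also differed by list. All 4 histone genes were lower (median -0.43; none by limma with library totals equalised, and 0 at an unadjusted p under 0.05), among them histone H2A (Solyc09g010400.3), which packs DNA, with 118, 114 and 124 FPKM in weighted stems and 181, 145 and 155 FPKM in control stems. All 12 tested chromatin remodelling and modification genes were higher (median 0.44; 8 with median-ratio scaling), and so were all 8 tested DNA replication and repair genes (median 0.55). The licensing factor MCM2 (Solyc11g040120.3), a helicase subunit of replication origins, had 14.2, 12.2 and 13.3 FPKM in weighted stems, against 10.4, 6.15 and 8.43 FPKM in control stems (0.63, SE 0.17, limma adjusted p = 0.00816). RNA processing genes went 12 higher and 12 lower, with a median of 0.03. With library totals equalised they went 12 higher and 2 lower, with a median of 0.31 and 2 sign changes, and with median-ratio scaling 9 higher and 12 lower.

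Cytoskeleton genes were higher in 18 of 19 cases and lower in 1 (median 0.57; 18 and 0 by limma with library totals equalised), formins, myosins, kinesins and tubulin among them. SPIKE 1-like (Solyc08g016060.1), an exchange factor that sets actin and microtubule order in growing cells, had 9.04, 8.22 and 7.23 FPKM in weighted stems, against 3.72, 3.94 and 3.66 FPKM in control stems. Its weighted libraries lay far from the controls (0.94, SE 0.11, limma adjusted p = 0.00205). The single lower gene was a dynein light chain (Solyc07g063610.4), a small protein, with 35.6, 32.4 and 27.2 FPKM in weighted stems and 51.1, 35.0 and 57.2 FPKM in control stems (-0.56). It was not called without weighted replicate 3 or without control replicate 3.

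Sugar transporters fell while membrane pumps rose. Of 9 sugar transporter genes 2 were higher and 7 lower, with a median of -1.37, and these counts were the same with library totals equalised. Sugar transport protein 13 (Solyc06g054270.3), of a family of hexose carriers, had 2.81, 2.55 and 5.36 FPKM in weighted stems, against 9.48, 21.6 and 14.9 FPKM in control stems. No weighted library reached the controls (-1.82, SE 0.31, limma adjusted p = 0.00322). A SWEET gene (Solyc03g097590.4), of transporters that let sugar out of cells, had 7.86, 8.32 and 9.51 FPKM in weighted stems, against 40.5, 24.7 and 25.9 FPKM in control stems (-1.68, SE 0.19, limma adjusted p = 0.00182). Another (Solyc03g097870.4) had 12.7, 14.4 and 14.4 FPKM in weighted stems, against 59.3, 34.1 and 30.6 FPKM in control stems (-1.46, SE 0.22). Control replicate 1 was highest in both SWEET genes. Named after their values were seen, the 2 higher members were a further SWEET gene (Solyc03g097570.3, 0.77) and monosaccharide-sensing protein 1 (Solyc04g082700.3, 0.85), a vacuolar sugar importer, which had 100.3, 104 and 108 FPKM in weighted stems and 70.8, 43.9 and 61.0 FPKM in control stems.

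All 12 ATPase pump genes were higher (median 0.52; 10 with median-ratio scaling). A P-type proton pump gene (Solyc08g078210.3), of the ATPases that acidify the wall and power uptake, had 33.8, 35.1 and 30.1 FPKM in weighted stems, against 19.9, 17.2 and 19.3 FPKM in control stems. The groups were far apart (0.78, SE 0.10, limma adjusted p = 0.00237). Of 9 ABC transporters tested 8 were higher and 1 lower (8 and 0 by limma with library totals equalised). The lower gene (Solyc05g056470.1) was at -0.89, not called without weighted replicate 1 or without weighted replicate 2, and at -0.45 without control replicate 1. Aquaporins and ion channels split 5 and 5 (5 higher and 1 lower with library totals equalised; 3 lower without control replicate 3). A major intrinsic protein gene (Solyc12g044330.2), an aquaporin, had 135, 149.8 and 95.9 FPKM in weighted stems, against 224, 330.2 and 211 FPKM in control stems (-0.99, SE 0.21). The piezo-type mechanosensitive channel (Solyc09g074110.4), looked up for its role in sensing membrane stretch, had 9.93, 8.71 and 7.84 FPKM in weighted stems, against 5.81, 5.25 and 6.78 FPKM in control stems (0.50, SE 0.13, limma adjusted p = 0.00729). It also belongs to the very large proteins, whose median difference was 0.52.

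In carbohydrate metabolism 7 of 10 starch, sucrose and trehalose genes were higher and 3 lower (7 and 2 with library totals equalised). A galactinol-sucrose galactosyltransferase (Solyc07g007930.3), which makes raffinose, had 172, 165 and 143 FPKM in weighted stems, against 65.3, 69.1 and 61.0 FPKM in control stems. Every weighted library was more than double any control library (1.28, SE 0.10, limma adjusted p = 0.000649). Trehalose 6-phosphate phosphatase (Solyc03g007290.4), which removes a signal of sugar status, had 14.1, 14.1 and 11.0 FPKM in weighted stems, against 7.19, 5.06 and 5.03 FPKM in control stems (1.06, SE 0.16). Beta-amylase (Solyc08g007130.4), which degrades starch, fell to 1.79, 1.73 and 1.46 FPKM in weighted stems, against 7.32, 2.57 and 5.32 FPKM in control stems (-1.11, SE 0.28).

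Genes of amino acid and vitamin synthesis were higher in 14 of 16 cases and lower in 2 (median 0.60; 14 and 1 with library totals equalised). Thiamine thiazole synthase (Solyc07g064160.3), which makes part of vitamin B1, had 5226, 5490.3 and 8042 FPKM in weighted stems, against 3772, 2670.0 and 3479 FPKM in control stems (0.91, SE 0.20, limma adjusted p = 0.00495). Phosphomethylpyrimidine synthase (Solyc06g006080.3), which makes the other part, had 155, 138 and 367 FPKM in weighted stems, against 125, 49.4 and 95.6 FPKM in control stems. Weighted replicate 3 was the highest in both genes. The call of the second (1.23, limma adjusted p = 0.0218) was lost without that library (0.79), without control replicate 2 (0.85) and with median-ratio scaling (1.02).

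Thiol redox genes and peroxidases were lower in 13 of 16 cases, and 3 were lower with library totals equalised, with 1 sign change. A glutaredoxin (Solyc11g069940.1), a small thiol enzyme, had 41.1, 47.0 and 70.5 FPKM in weighted stems, against 208, 87.7 and 125 FPKM in control stems (-1.34, SE 0.31, limma adjusted p = 0.00539). Among the 3 called higher was a peroxidase (Solyc02g084800.4), with 305, 350.0 and 388 FPKM in weighted stems and 162, 172 and 175 FPKM in control stems (1.02, SE 0.10, limma adjusted p = 0.00173). Another of the 3, named after its values were seen, was also a peroxidase (Solyc04g071900.4). It had 258, 295 and 412 FPKM in weighted stems and 168, 157 and 207 FPKM in control stems (0.84, SE 0.18). Cytochrome P450 genes went 3 higher and 6 lower (3 and 4 with library totals equalised), with P450 71A4 (Solyc03g112010.4) at 8.44, 9.17 and 8.35 FPKM in weighted stems and 22.8, 14.6 and 15.6 FPKM in control stems.

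Markers of single stem tissues were too few in this selected table to describe tissue make-up. The xylem list had 1 gene, the laccase above, and the endodermis list 1, a CASP-like gene (Solyc06g072550.3), of scaffold proteins for wall barriers, with 6.35, 6.41 and 7.41 FPKM in weighted stems and 2.38, 1.60 and 2.54 FPKM in control stems. Phloem genes were a sucrose synthase (Solyc12g009300.3, 0.66) and a phloem protein 2-like gene (Solyc12g044930.3, -0.60, not called with library totals equalised, at -0.33). Both genes of the guard cell list were lower, at -1.13 for the anion channel SLAH3 (Solyc03g007770.3) and -0.93 for an epidermal patterning factor-like gene (Solyc05g051545.1), and 1 call was lost without most single libraries. SLAH3 had 3.97, 4.14 and 3.82 FPKM in weighted stems, against 4.43, 22.4 and 9.26 FPKM in control stems, and without control replicate 2, the highest library, the difference was -0.59 and was not called. Nor was it called with library totals equalised (-0.88). Of 3 cuticle-related GDSL lipase genes 2 were higher and 1 lower (1 and 1 without weighted replicate 1). No gene of the cambium or trichome lists was in the table, which says nothing of those tissues, since the table is a selection.

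The effect at 10 days was set against the effect in the same 1114 genes at 6 h, which rested on other libraries and other controls. At 6 h 288 genes were called (25.9%), 148 higher (13.3%) and 140 lower (12.6%), with a median of 0.02. Of the 577 genes higher at 10 days, 107 were higher, 57 lower and 413 not called at 6 h. Of the 534 genes lower at 10 days, 82 were lower, 41 higher and 411 not called at 6 h. The 2 effects differed by an interaction test in limma in 543 genes (48.7%): 304 were more positive at 10 days (27.3%) and 239 more negative (21.5%). Genes were selected on the 10 day libraries, which enter this difference. The 6 h count was also less stable, at 68 without control replicate 1, 89 without weighted replicate 1, 91 without control replicate 2, 133 without weighted replicate 3 and 169 without weighted replicate 2.

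**Figure D4:**
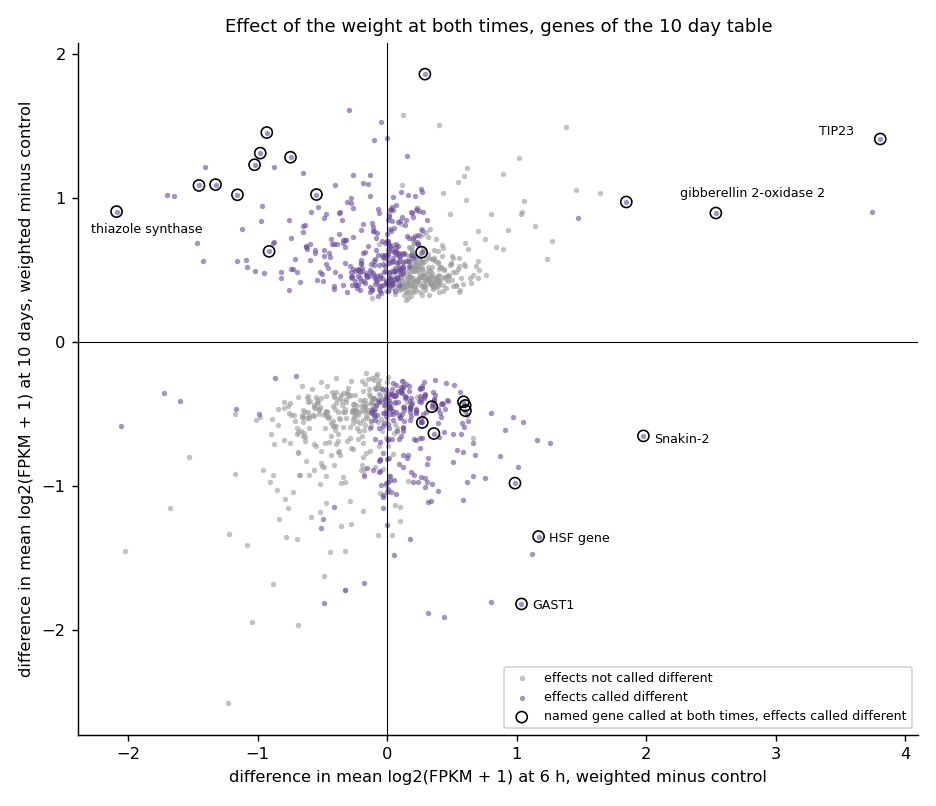
Weighted minus control difference (log2(FPKM + 1)) at 6 h (horizontal axis) and at 10 days (vertical axis) for the 1114 tested genes, with genes whose 2 effects differed by limma in purple and circles around 25 named genes called at both times with a called difference. The bands above and below 0 at 10 days reflect the selection of the table, and the points spread on both sides of 0 at 6 h.

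Coats and photosystems kept their direction at both times. Coat genes were already higher at 6 h (15 of 23, none lower, median 0.33), with mean log2 levels of 5.83, 5.78 and 5.76 in weighted stems and 5.40, 5.42 and 5.56 in control stems. Photosystem genes were already lower (17 of 21, none higher, median -0.66), with mean log2 levels of 6.59, 6.67 and 6.88 in weighted stems and 7.66, 7.63 and 7.27 in control stems. At 10 days these photosystem levels were 6.88, 6.95 and 7.02 in weighted stems and 7.50, 7.34 and 7.48 in control stems. The difference of the effects was called positive for 5 photosystem genes and negative for 1.

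For cytosolic ribosomal proteins 5 of 8 genes were higher and 1 lower at 6 h (median 0.36), and for 7 of 8 the effect at 10 days was called more negative. With library totals equalised 6 were higher at 6 h and the difference of the effects was called more negative for 6, but at 10 days none of the 8 was called by limma, nor at an unadjusted p under 0.05, with a median of -0.02. Ribosomal protein L15 (Solyc06g060400.3) had 452, 438 and 444 FPKM in weighted stems at 6 h, against 352, 352 and 345 FPKM in control stems at 6 h, and its effects differed by -0.80 (limma adjusted p = 0.000178). Of 16 genes of amino acid and vitamin synthesis 6 were lower, 10 not called and none higher by limma at 6 h (1 higher and 7 lower at an unadjusted p under 0.05). The effect at 10 days was called more positive for 12 (11 with library totals equalised, where 2 were higher and 4 lower at 6 h). Thiamine thiazole synthase (Solyc07g064160.3) had 1562, 1353 and 1665 FPKM in weighted stems at 6 h, against 6259.8, 7608 and 5689 FPKM in control stems at 6 h. Its effects were called in opposite directions, -2.09 at 6 h and 0.91 at 10 days, and differed by 2.99 (limma adjusted p = 4.14e-05).

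In the cytoskeleton list the effect at 10 days was called more positive for 14 of 19 genes and more negative for none, by limma. Its mean log2 level at 6 h was 2.99, 3.02 and 2.97 in weighted stems and 3.00, 3.01 and 3.02 in control stems, and at 10 days it was 3.82, 3.58 and 3.54 in weighted stems and 3.09, 2.94 and 3.07 in control stems. For very large proteins the effect at 10 days was called more positive for 30 of 55 genes and more negative for none, by limma. No sugar transporter was called by limma at 6 h (0 higher and 3 lower at an unadjusted p under 0.05), and the effect at 10 days was called more negative for 3 and more positive for 2. GAST1 (Solyc02g089350.3) was at 402, 479 and 419.8 FPKM in weighted stems at 6 h, against 236, 179.5 and 219 FPKM in control stems at 6 h. The gene was thus higher in weighted stems at 6 h (1.04) and lower in them at 10 days (-1.82). In all, 98 genes were called in opposite directions at the 2 times with a called difference.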

How the data were processed

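The members and the gene lists were chosen with earlier results of these data known. Per the labels' protocols, total stem RNA gave reads aligned by HISAT (genome) and Bowtie2 (genes); the sources used here give no versions, build or treatment of shared reads. The authors deposited FPKM per library for the genes of the 10 day table, with Q values, which serve here as a description only. All 12 library columns were mapped by name.

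Values became log2(FPKM + 1). A gene was tested if 3 or more of the 6 libraries at 10 days reached 1 FPKM (1114 genes; 32 were not tested). Fits used limma 3.58.1 (empirical Bayes with trend, two-sided, Benjamini-Hochberg over all tested) in R 4.3.3 for the 10 day contrast, the 6 h contrast, and their difference over 12 libraries. The remaining steps ran in Python 3.11.15 (numpy 2.4.6, pandas 2.3.3, matplotlib 3.10.9). Tested on simulated data of 1114 genes with 200 changed by 1 log2, 95.5% (10 days), 91.5% (6 h) and 86.5% (difference) were recovered, with 10, 5 and 10 false calls; the real table is a selection, so these rates do not carry over. An exact permutation test was not used, since 3 libraries in each group allow no p under 0.1.

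The 50 lists match names or domains in the table, present for 1073 genes; the reference gene table held 0 of the identifiers, so neither positions nor sequences are printed. Lists hold 520 genes, and 64 genes are in 2 or more. The 136 named genes are the 10 largest rises and 10 largest falls (named or with a domain, higher group averaging 5 FPKM or more, groups apart), up to 3 called members per list by size at that level, and the 5 most abundant. Alternatives were other pseudocounts, filters and scalings, a fit without trend, a replicate block, and leaving out each library.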

Additional observations from a re-analysis of the deposited data

Results flagged for a closer look

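The effect of the weight differed between the times by limma's interaction test in 543 of the genes tested, and in 25 of the 136 named genes it was called at both times as well as different. Of these, 20 had opposite directions. In 10 genes the effect was positive at 10 days and negative at 6 h. The difference of the effects (10 days minus 6 h, log2 scale) was 2.99 for thiamine thiazole synthase (Solyc07g064160.3), 2.54 for threonine dehydratase 2 (Solyc09g008670.3), 2.42 for caffeoyl-CoA O-methyltransferase (Solyc04g063210.3) and 2.38 for phospholipase A2 (Solyc07g014730.3). It was 2.29 for a GDSL esterase/lipase (Solyc10g008830.2), 2.25 for phosphomethylpyrimidine synthase (Solyc06g006080.3), 2.18 for a peroxidase (Solyc02g084800.4) and 2.03 for phosphoenolpyruvate carboxylase (Solyc07g062530.3). It was 1.57 for a subtilase-type peptidase (Solyc08g079890.2) and 1.54 for a vacuolar protein sorting-associated protein (Solyc01g081620.3).

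In 10 other genes the effect was negative at 10 days and positive at 6 h. The difference of the effects was -2.86 for GAST1 (Solyc02g089350.3), -2.63 for Snakin-2 (Solyc01g150176.1), -2.52 for a heat stress factor domain gene (Solyc07g055710.3) and -1.97 for GDSL-lipase 1 (Solyc02g071620.3). It was -1.08 for ribosomal protein L37 (Solyc06g066660.4), -1.04 for an arabinogalactan protein (Solyc08g008230.3), -1.01 for ribosomal protein S15 (Solyc06g053820.4) and -0.998 for a pectinesterase (Solyc06g051960.3). It was -0.83 for an RRM domain gene (Solyc04g074040.3) and -0.80 for ribosomal protein L15 (Solyc06g060400.3). With library totals equalised the 10 day call was lost in 6 of these genes, at -0.36 for Snakin-2, -0.18 for L37, -0.16 for the arabinogalactan protein, -0.13 for S15, -0.35 for the pectinesterase and -0.15 for L15.

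In 5 genes both effects were positive and their sizes differed. On the log2(FPKM + 1) scale the effect at 10 days was larger by 1.57 for the DUF1442 gene (Solyc06g034410.3) and by 0.36 for the AP-1 gamma subunit (Solyc04g025870.4). The DUF1442 gene was near the floor at 6 h, with 0.37, 0.14 and 0.27 FPKM in weighted stems and 0, 0.04 and 0.04 FPKM in control stems. At such levels the added 1 FPKM shrinks a difference, so its 1.57 does not show a larger fold change at 10 days. The difference was -2.39 for tonoplast intrinsic protein 23 (Solyc06g060760.3), -1.64 for gibberellin 2-oxidase 2 (Solyc07g056670.3) and -0.87 for cold-regulated protein 27/28 (Solyc04g078880.3), whose effects were larger at 6 h. In the GDSL esterase/lipase (Solyc10g008830.2) and the heat stress factor domain gene (Solyc07g055710.3) the groups overlapped at 10 days. The genes were chosen on the 10 day libraries, and which of these differences reflect that choice was not tested.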

How the results depend on the processing

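The 10 day count of 1111 stayed within 1.5 times in every alternative run, though equalising library totals cut lower calls from 534 to 169. It was 1111 with a pseudocount of 0.1 or 0.5, 1141 of 1146 with no filter, 958 of 959 with a 5 FPKM filter, 1014 with median-ratio scaling, 746 with library totals equalised, 1110 without trend, and 1069 to 1098 leaving out each library. The 6 h count of 288 was 439 with library totals equalised (353 higher and 86 lower), and it ran over 68 to 344 leaving out each library; the cause was not tested. The count of different effects (543) ran over 451 to 566 with other pseudocounts, filters and scalings and 419 to 543 leaving out each library. Of 1896 alternative values of the 136 named genes at 10 days, 1840 kept direction and call, 56 kept direction without the call, in 31 genes, and none changed direction. These values do not cover the calls of named genes at 6 h or for the difference of the effects.

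Replicate numbers did not pair the libraries: deviations of same-numbered libraries correlated at -0.156, 0.317 and 0.168 at 10 days and at -0.438, -0.31 and -0.114 at 6 h. With the replicate block 1110 genes were called at 10 days, 60 at 6 h and 465 for the difference. Depth is unknown, no count test could be run, the table is a selection for this contrast, and differences of low genes are understated by the added 1 FPKM.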

Other observations

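Outside the groups above, 2 abundant genes were lower in weighted stems under the deposited scaling. A metallothionein (Solyc09g010800.5.1), of small metal-binding proteins, had 9057, 9584 and 9565 FPKM in weighted stems, against 12623, 11172 and 12492 FPKM in control stems, a fall of small size (-0.36, SE 0.13, limma adjusted p = 0.0224). That call was lost without weighted replicate 2 (-0.38), without control replicate 1 (-0.33), without control replicate 3 (-0.34), with the replicate block and with library totals equalised, where the difference was -0.065. A gene with no name or domain (Solyc01g095530.2) had 4467, 4768 and 4523 FPKM in weighted stems, against 7273, 5415 and 7211 FPKM in control stems (-0.52, SE 0.15, limma adjusted p = 0.0094), a call lost with library totals equalised (-0.22). Neither gene's groups overlapped. Solyc02g076910.3, a cysteine peptidase, had 30.4, 32.4 and 18.6 FPKM in weighted stems, against 50.5, 81.3 and 44.5 FPKM in control stems at 10 days, and no more than 0.05 FPKM in any library at 6 h.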
